A study of Mus musculus with 8 samples.

Results

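Among the open chromatin regions of 7 mouse bone marrow stromal ATAC-seq libraries, 854 of 50683 merged regions (1.68%) held a peak of the libraries titled ATAC1 and ATAC5 and no peak of ATAC2, ATAC3, ATAC4, ATAC6 or ATAC7. They were selected on the peak calls themselves. Peaks of all 7 libraries were merged wherever they had at least 1 base in common, and a region was kept when these were the only libraries in it. Presence, rank, read count and fold over Input in the libraries are therefore descriptions of the selection, while position in the genome, nearby genes and DNA sequence were not used by it.

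The study sorted stromal cells of the bone marrow, which lacked the blood and vessel antigens CD45, TER119 and CD31 and carried PDGFRα and Sca-1, into subpopulations with further surface markers, and profiled each by ATAC-seq. All libraries are labelled as wild-type C57BL/6J mice at 6 weeks after birth, with no treatment given (the methods name the substrain C57BL/6JJcl), and a single Input library was the control for every peak call. Nothing in the labels ties a title to one of the sorted populations. Each title had 1 library, so every difference is between libraries and has no replicate, and the intervals given (95%, Wilson) cover counting error only.

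ATAC-seq marks DNA that is free enough of nucleosomes for the Tn5 transposase to insert sequencing adapters. Open regions away from gene starts are mostly enhancers, whose opening is set by the transcription factors that bind them. PU.1 and the C/EBP proteins open enhancers of myeloid blood cells, RUNX factors act in both blood and bone, E-box motifs are bound by basic helix-loop-helix factors, and the AP-1 factors (JUN, FOS and their relatives) occupy many enhancers of stromal cells.

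The sequences below are the plus strand of build mm9, 5′ to 3′, in lower case, with matches to the PU.1 motif GAGGAAGT, the CEBP motif TTGCNNAA and the AP-1 motif TGANTCA, on either strand, in capitals. A match is a description of the letters and not a proven site. Each line gives the whole region or the 200 bases around its centre. The first 3 are shown because they held a PU.1 and a CEBP match together and were nearest to Il1a (interleukin 1 alpha, 4143 bases from its start site), Cxcl1 (a neutrophil chemokine, 9848 bases) and Hlx (a homeobox factor of blood cells). At 254256 bases the assignment to Hlx says little. The region near Il1a held a CEBP match directly beside the PU.1 match and a further CEBP match downstream.
Il1a, chr2:129139752-129139951: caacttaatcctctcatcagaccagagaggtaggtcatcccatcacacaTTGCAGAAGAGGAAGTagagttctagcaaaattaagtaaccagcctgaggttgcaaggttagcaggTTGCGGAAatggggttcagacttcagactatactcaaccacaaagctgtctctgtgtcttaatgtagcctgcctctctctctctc
Cxcl1, chr5:91310320-91310519: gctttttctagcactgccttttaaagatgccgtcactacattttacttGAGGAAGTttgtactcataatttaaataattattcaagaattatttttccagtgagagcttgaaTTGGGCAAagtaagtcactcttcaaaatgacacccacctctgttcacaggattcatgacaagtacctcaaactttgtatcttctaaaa
Hlx, chr1:186301975-186302174: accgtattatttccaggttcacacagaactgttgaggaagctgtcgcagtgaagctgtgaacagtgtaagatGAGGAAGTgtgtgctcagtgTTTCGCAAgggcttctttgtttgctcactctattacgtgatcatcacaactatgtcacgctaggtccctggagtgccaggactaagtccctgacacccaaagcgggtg

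The next 4 held a PU.1 or a CEBP match near other genes named in the results. Tnfaip3 (the NF-κB inhibitor A20) and Tmsb4x (the actin-binding peptide thymosin beta 4) had the PU.1 match. Cd34 (a sialomucin of progenitors and vessels) and Csf1 (the macrophage growth factor) had the CEBP match.
Tnfaip3, chr10:18814212-18814411: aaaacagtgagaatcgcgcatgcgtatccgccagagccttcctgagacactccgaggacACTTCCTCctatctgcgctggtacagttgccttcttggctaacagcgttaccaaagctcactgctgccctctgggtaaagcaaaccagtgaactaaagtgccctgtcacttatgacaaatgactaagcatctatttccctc
Tmsb4x, chrX:163667369-163667568: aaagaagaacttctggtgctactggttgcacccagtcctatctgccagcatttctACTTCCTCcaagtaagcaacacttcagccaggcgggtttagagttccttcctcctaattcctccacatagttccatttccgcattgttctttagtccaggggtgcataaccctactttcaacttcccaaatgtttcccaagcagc
Cd34, chr1:196756233-196756432: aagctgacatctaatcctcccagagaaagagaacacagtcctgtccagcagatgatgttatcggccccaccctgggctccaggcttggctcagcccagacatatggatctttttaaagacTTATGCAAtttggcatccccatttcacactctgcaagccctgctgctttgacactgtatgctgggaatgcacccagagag
Csf1, chr3:107586273-107586507: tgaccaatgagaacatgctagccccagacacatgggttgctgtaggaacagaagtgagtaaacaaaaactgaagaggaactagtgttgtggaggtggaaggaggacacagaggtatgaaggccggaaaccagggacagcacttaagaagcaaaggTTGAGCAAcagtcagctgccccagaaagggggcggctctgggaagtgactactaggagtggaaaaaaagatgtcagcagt

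Another 3 held an AP-1 match near genes of the fixed lists, namely Ccl2 (a monocyte chemokine), Col3a1 (the collagen III chain) and a further region of Cd34.
Ccl2, chr11:81820468-81820667: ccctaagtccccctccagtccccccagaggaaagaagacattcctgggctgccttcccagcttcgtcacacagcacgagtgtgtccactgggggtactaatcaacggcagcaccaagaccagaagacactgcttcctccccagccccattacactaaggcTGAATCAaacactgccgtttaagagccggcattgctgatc
Col3a1, chr1:45412853-45413052: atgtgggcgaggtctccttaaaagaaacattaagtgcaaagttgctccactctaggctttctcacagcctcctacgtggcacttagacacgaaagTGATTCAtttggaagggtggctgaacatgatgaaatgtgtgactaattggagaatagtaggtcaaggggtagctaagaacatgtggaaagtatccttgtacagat
Cd34, chr1:196711971-196712266: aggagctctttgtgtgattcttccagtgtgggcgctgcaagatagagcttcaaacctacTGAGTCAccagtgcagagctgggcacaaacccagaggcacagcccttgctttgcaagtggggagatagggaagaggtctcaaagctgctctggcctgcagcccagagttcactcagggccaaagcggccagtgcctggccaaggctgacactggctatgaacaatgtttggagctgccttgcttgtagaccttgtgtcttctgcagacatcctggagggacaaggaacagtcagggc

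The last sequence is the highest-ranked region of all, in an intron of Dusp10, a phosphatase of MAP kinases, 298 bases from the start site. It held none of the 3 motifs.
Dusp10, chr1:185857826-185858098: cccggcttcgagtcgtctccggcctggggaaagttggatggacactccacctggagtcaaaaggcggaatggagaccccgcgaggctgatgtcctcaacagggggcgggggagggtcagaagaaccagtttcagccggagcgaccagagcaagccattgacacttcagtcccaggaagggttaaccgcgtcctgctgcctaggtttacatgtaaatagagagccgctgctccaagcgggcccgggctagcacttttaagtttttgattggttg

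The regions were weak peaks in both libraries. Their best peak had a median rank at 78.6% of the ATAC1 list (quartiles 66.4 and 90.1) and at 75.8% of the ATAC5 list (62.3 and 87.4), where 0 is the strongest and 100 the weakest peak. Reads were counted by the caller in the outer region, the wider stretch from which it cut each peak, so the value belongs to that stretch and is given without scaling for depth. The median library read count was 75 in ATAC1 and 71 in ATAC5, against 140 and 124 over all peaks of these lists. The median Input count was 13 and 14. The median fold over Input, the authors' ratio of scaled library reads to Input reads, was 7.04 in ATAC1 and 8.88 in ATAC5, against 7.88 and 10.9 over all peaks with Input reads. Only 56 of the 854 regions stood in the better-ranked 50% of the ATAC1 list, 85 in that of ATAC5 and 12 in both.

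Across the 850 regions with Input reads in both peaks, the fold was higher in ATAC1 in 186 (21.9%) and the median log2 ratio of ATAC1 to ATAC5 was -0.34. The folds of the 2 libraries rose together across these regions (Pearson's r = 0.842 on log2 values, Spearman's rank correlation 0.835, n = 850 regions). The points share 1 Input library and largely the same Input reads, so this correlation is a description. Ratios of depth-scaled reads, taken over outer regions that differ in extent between the libraries, were lowest near E2f7, Tle6 and Pmepa1 (0.154 to 0.164) and highest near Ifnar2, Sik1 and Atxn7l1 (2.06 to 2.11), among regions with at least 10 Input reads in each peak. By fold these differences were smaller. Near E2f7, a repressor of the cell cycle, ATAC1 had 47 reads over 13 Input reads and ATAC5 219 over 28, with folds of 4.44 and 13.4 (log2 ratio -1.59). At Tle6 and Pmepa1 the log2 fold ratios were -0.76 and -0.96. Near Ifnar2, a chain of the type I interferon receptor, ATAC1 had 178 reads over 37 and ATAC5 62 over 23, with folds of 5.91 and 4.62 (log2 ratio 0.36). At Atxn7l1 the log2 fold ratio was 0.69, and at Sik1, a kinase related to AMPK, it was -0.21, so that the order of the libraries turned.

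**Figure D1:**
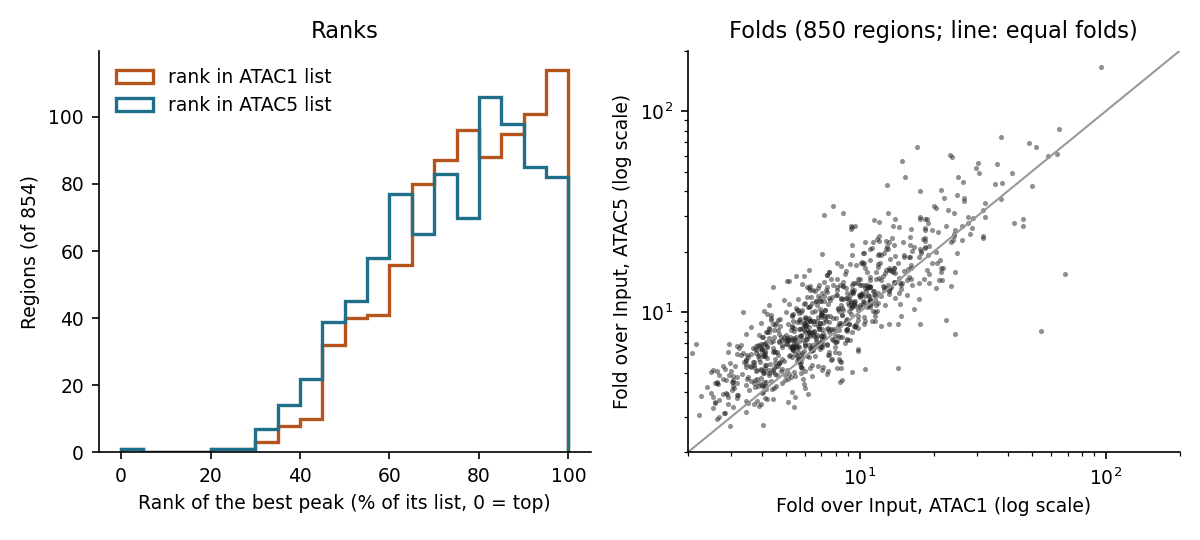
Left, the number of the 854 regions (y axis) by the rank of their best peak as a percentage of the ATAC1 list (brown) and of the ATAC5 list (blue). Right, the authors' fold over Input in ATAC1 (x axis) and ATAC5 (y axis), both on log scales, with 1 point for each of 850 regions. Most ranks lie in the weaker part of both lists, and 186 of the points lie below the line of equal folds.

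In 809 regions each library had 1 peak, and in 45 a library had several. The regions were a median of 250 bases wide (8 to 1209), and the ATAC1 and ATAC5 peaks had a median of 87 bases in common (1 to 1109). The widest regions lay near Irg1 (1209 bases), Rasa3 (1005), Lrrc8d (996), Tnfaip2 (859) and Smchd1 (844). At the edge of the selection, 5 regions rested on 1 common base, near Peli1, Jam2, Ntng2, Rhof and Mapkapk3, and 55 rested on at most 10. Just outside it, 13 neighbouring peaks of ATAC1 alone and ATAC5 alone touched with 0 bases between them, among them those near Plxnc1, Itgb3, Asap1, Vps8 and Gpam. The reads did not separate the 2 sides. The 5 regions inside had 58 to 104 ATAC1 reads and 69 to 123 ATAC5 reads, and the 5 named outside had 46 to 88 and 44 to 109.

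How far these regions stood from the peaks of the other libraries varied widely. The nearest peak of another library was a median of 4947 bases away (0 to 953456). It lay within 100 bases in 110 regions (12.9%) and within 1000 bases in 250 (29.3%). The outer region of another library's peak covered 134 regions (15.7%). This was the case for 80 of 225 promoter regions (35.6%) and for 54 of 629 regions away from promoters (8.59%). The remaining 604 regions (70.7%) lay over 1000 bases from any other library's peak and outside their outer regions, and are called isolated below. A missing peak is not shown to be closed chromatin, since the tables list only what passed the caller's threshold.

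With peaks of both ATAC1 and ATAC5 in 15796 regions, the exclusive regions were 5.41% of the shared ones, and 8428 of the shared regions were in all 7 libraries. A peak of 1 further library was present in 1077 of them, of ATAC6 in 439, ATAC2 in 268, ATAC3 in 193, ATAC7 in 98 and ATAC4 in 79. The exclusive regions made up 3.83% of the 22269 regions with an ATAC1 peak and 2.89% of the 29537 with an ATAC5 peak. Among the 21 possible pairs of libraries this pair was the fourth largest. It followed ATAC2 and ATAC6 (2235 regions), ATAC2 and ATAC5 (1727) and ATAC5 and ATAC6 (1152). Of the pairs that include ATAC1 it was the largest, ahead of ATAC1 and ATAC4 (431), ATAC1 and ATAC6 (412), ATAC1 and ATAC3 (288), ATAC1 and ATAC2 (172) and ATAC1 and ATAC7 (58). The lists differed in length, from 15188 peaks in ATAC7 to 32280 in ATAC2, with 24510 in ATAC1 and 31479 in ATAC5, and the number of exclusive regions depended on this. When every list was shortened to its best 15188 peaks, 107 regions were exclusive to the pair, of which 25 overlapped one of the 854 and 82 did not. The 107 are therefore largely another set of regions.

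**Figure D2:**
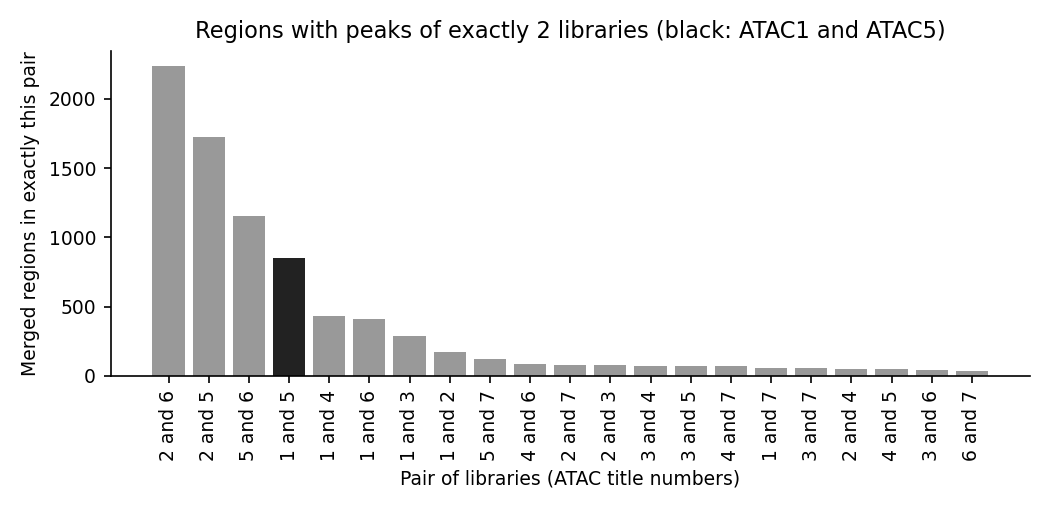
The number of merged regions with peaks of exactly 2 libraries (y axis, starting at 0) for the 21 pairs of libraries (x axis, title numbers). The black bar is the pair of ATAC1 and ATAC5 with 854 regions, below the 3 pairs formed by ATAC2, ATAC5 and ATAC6.

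Most of the regions lay away from gene starts. The centre was within 1000 bases of an annotated start site in 225 of 854 (26.3%, interval 23.5 to 29.4), against 40.0% of all merged regions. The share was 26.7% in the 3614 regions of ATAC1 alone, 26.5% in the 5666 of ATAC5 alone and 32.1% in the 1152 of exactly ATAC5 and ATAC6. Of the isolated regions, 17.5% (14.7 to 20.8) were at start sites. The promoter share also went with peak strength, from 37.9% in the 214 best-ranked of the 854 regions (31.6 to 44.5) to 18.7% in the 214 weakest (14 to 24.4). With the lists shortened to 15188 peaks each, it was 50.5% of 107 regions (41.1 to 59.8), against 57.5% of all regions merged in the same way, a difference within the interval.

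Of the 854 regions, 403 were intergenic (47.2%, 43.9 to 50.5), against 40.2% of all regions, 38.1% of ATAC1 alone and 40.5% of ATAC5 alone. A further 359 lay in introns (42.0%), 53 in untranslated regions, 23 in coding exons and 16 in noncoding exons. The median distance to a protein-coding start site was 8927 bases, against 4520 for all regions. GC content in the central 200 bases had a median of 50.5% (quartiles 45.5 and 56.5), against 53.5% over all regions, 50.5% in ATAC5 alone and 53.2% in exactly ATAC5 and ATAC6.

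The DNA under the regions was searched for 22 transcription factor motifs in the central 200 bases, on both strands. The PU.1 motif GAGGAAGT was in 57 of 854 regions (6.67%, interval 5.19 to 8.55), against 2.49% of all merged regions. The regions of ATAC1 alone held it in 6.56% (5.80 to 7.41), while those of ATAC5 alone held it in 2.24% (1.89 to 2.66) and those of exactly ATAC5 and ATAC6 in 1.65% (1.06 to 2.56). The interval of the exclusive regions thus covered the value of ATAC1 alone and neither of the other 2 sets. Among exclusive pairs with ATAC1, the PU.1 share was 6.94% with ATAC3 (4.54 to 10.5), 4.65% with ATAC2, 2.67% with ATAC6 and 2.09% with ATAC4 (1.10 to 3.92).

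The PU.1 share was 7.63% of the 629 regions away from promoters (5.80 to 9.97), against 3.02% of all such regions, and 7.28% of the 604 isolated regions. In the 107 regions found with lists of equal length, largely another set, it was 1.87% (0.514 to 6.56), against 2.42% of all regions merged in that way and inside the interval.

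The CEBP motif TTGCNNAA was in 115 regions (13.5%, 11.3 to 15.9), against 7.97% of all regions. It was in 11.1% of ATAC1 alone, 10.3% of ATAC5 alone and 7.81% of exactly ATAC5 and ATAC6. Among the other exclusive pairs with ATAC1 its share was 17% with ATAC3 (13.1 to 21.8), 11.6% with ATAC4, 9.88% with ATAC2 and 6.8% with ATAC6. Away from promoters it was in 16.1% (13.4 to 19.1), against 9.79% of all regions there. With equal list lengths its share was 14% of 107 (8.68 to 21.8), against 7.04%. The E-box CAGCTG was in 173 regions (20.3%, 17.7 to 23.1), against 14.3% of all regions, 18% of ATAC1 alone and 14.7% of ATAC5 alone, and the E-box share of the other exclusive pairs with ATAC1 was 16% to 20.5%.

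AP-1 went the other way. The motif TGANTCA was in 100 regions (11.7%, 9.72 to 14), against 16.1% of all regions. It was in 9.71% of ATAC1 alone (8.79 to 10.7) but in 18.7% of ATAC5 alone (17.7 to 19.7) and in 17.6% of exactly ATAC5 and ATAC6 (15.5 to 19.9). Among the other exclusive pairs with ATAC1, the AP-1 share was 18.8% with ATAC3 (14.7 to 23.7) and 11.6% with ATAC2. It was 9.74% with ATAC4 and 5.58% with ATAC6 (3.75 to 8.24). Away from promoters, where AP-1 was most frequent, it was in 13.7% of the exclusive regions (11.2 to 16.6) and in 23.3% of all regions. With equal list lengths the AP-1 share was 11.2% of 107 regions (6.53 to 18.6), against 12.7%, within the interval. In the exclusive pair of ATAC2 and ATAC5 it was in 24.7% (22.7 to 26.8), the highest share among the 8 exclusive pairs of at least 100 regions that hold ATAC1 or ATAC5.

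Among the other motifs, RUNX (TGTGGT) was in 17.1% (14.7 to 19.8) against 17.3% of all regions. CTCF (AGGGGGCG) was in 3.04% against 3.48%. The motif of the GATA factors of blood, searched as AGATAAG, was in 1.87% (1.16 to 3.02) against 1.85% of all regions and 5.37% of ATAC1 alone (4.68 to 6.15). The promoter motif SP/KLF (GGGGCGG) was in 9.25% (7.49 to 11.4) against 13.4%, and ETS (CCGGAAG) in 3.16% (2.18 to 4.56) against 4.51%. Away from promoters both turned to the other side of all such regions. SP/KLF was in 5.88% there (4.3 to 8) against 4.21%, and ETS in 3.34% (2.19 to 5.05) against 1.96%. TEAD (ACATTCC) was in 2.11% (1.34 to 3.31) against 2.85%. SOX (AACAATG) was in 2.69% (1.80 to 4.01) against 1.58%, and the longer EBF motif in 1.64% (0.979 to 2.73) against 0.803%. The AGGTCA motif of nuclear receptors was in 14.1% (11.9 to 16.5) against 11.5%, FOX in 3.98% (2.86 to 5.51) against 2.84% and STAT in 0.117% (0.0207 to 0.66) against 0.819%. Beside PU.1, CEBP, E-box and AP-1, the motifs whose intervals left out the share of all regions were these 3, SP/KLF, SOX and EBF, of the 22 searched. Away from promoters the intervals of FOX (3.5%, 2.32 to 5.24) and AGGTCA (16.1%, 13.4 to 19.1) covered the shares of all such regions, 3.64% and 14.1%. Those of SOX, EBF and STAT left them out there too. At least 1 of the PU.1, CEBP, AP-1, E-box and RUNX motifs was in 449 regions (52.6%), against 45.1% of all regions.

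**Figure D3:**
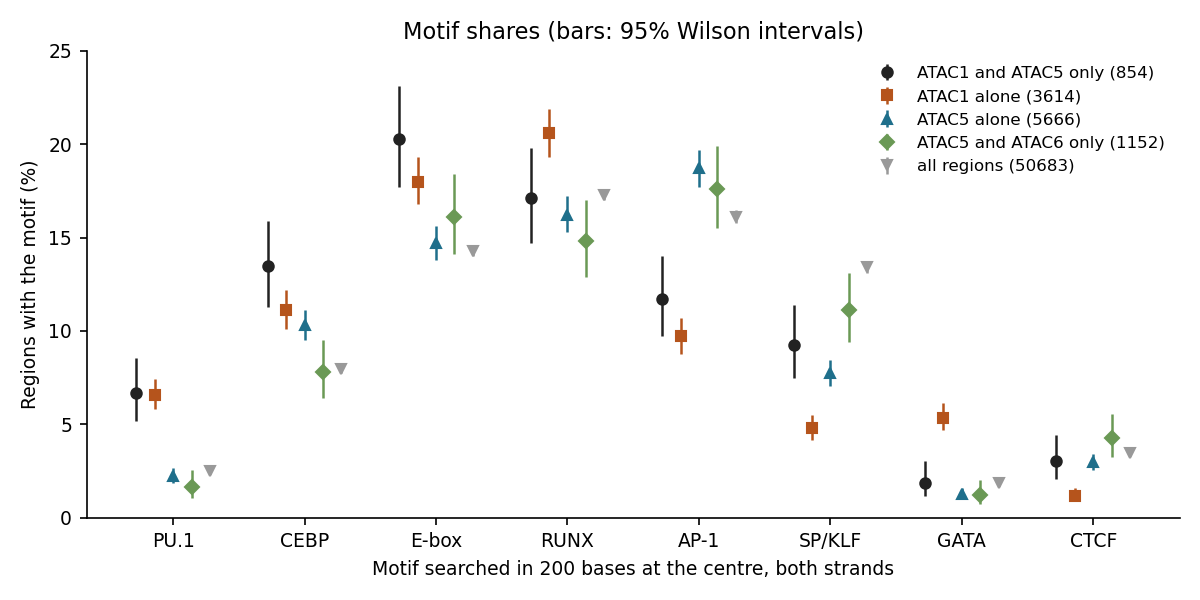
The percentage of regions with each of 8 motifs in the central 200 bases (y axis), for the 854 regions of exactly ATAC1 and ATAC5 (black), ATAC1 alone, ATAC5 alone, exactly ATAC5 and ATAC6, and all 50683 regions, with 95% Wilson intervals as bars. The black points lie beside ATAC1 alone for PU.1 and AP-1 and beside ATAC5 alone for GATA and CTCF.

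Within the 854 regions, the RUNX share varied with the balance of the 2 libraries. In the 213 regions with the lowest log2 ratio of ATAC1 to ATAC5 fold (-2.11 to -0.67), RUNX was in 10.8% (7.30 to 15.7) and AP-1 in 15.5% (11.2 to 21). In the 213 with the highest ratio (-0.04 to 2.75), RUNX was in 26.8% (21.3 to 33.1) and AP-1 in 8.92% (5.78 to 13.5). PU.1 was in 4.69% (2.57 to 8.43) and 9.86% (6.54 to 14.6) of these groups. The intervals of the outer groups were apart for RUNX and overlapped for AP-1 and PU.1. The promoter share was 29.1% and 20.7% in these groups, with overlapping intervals (23.4 to 35.5 and 15.8 to 26.6). Of the 854 regions, RUNX was in 9.78% of those at promoters and in 19.7% of those away from them. How far this enters the RUNX shares of the groups was not tested. AP-1 (15.5%, 10.4%, 11.3% and 8.92%), PU.1 (4.69%, 7.08%, 5.19% and 9.86%) and CEBP (15.0%, 12.3%, 8.96% and 17.8%) did not run in order over 4 groups of 212 or 213 regions from the lowest to the highest ratio.

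**Figure D4:**
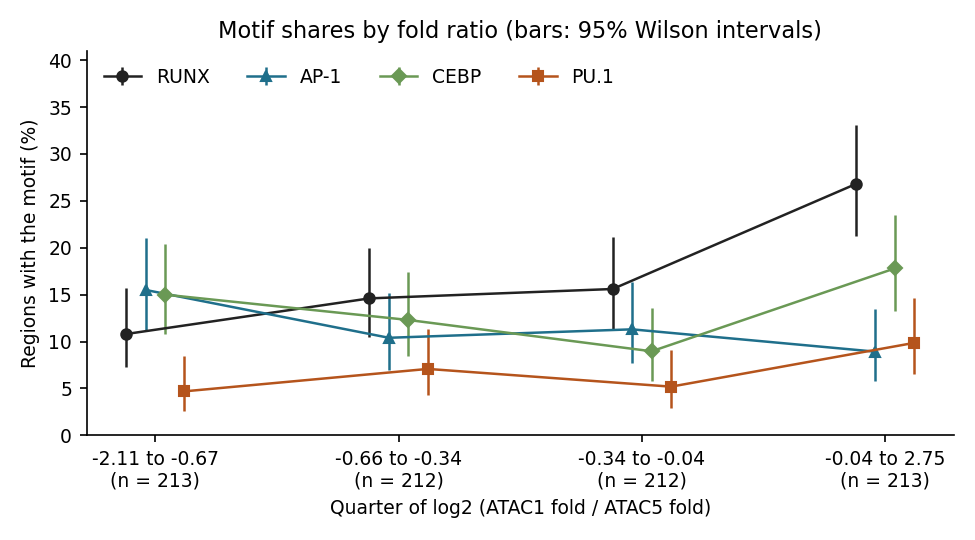
The percentage of regions with the RUNX, AP-1, CEBP or PU.1 motif (y axis) in 4 groups of 212 or 213 regions ordered by the log2 ratio of the ATAC1 to the ATAC5 fold (x axis), with 95% Wilson intervals as bars. RUNX runs from 10.8% to 26.8% between the outer groups, and the AP-1 intervals of these groups (15.5% and 8.92%) overlap.

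Distances of matches from the centre could reach 100 bases at most in the window searched. The PU.1 match nearest to the centre was a median of 37 bases away, and 37 of 57 were within 50 bases. For AP-1 the median was 36 bases, for CEBP 47 bases, and for E-box and RUNX 43 and 43.5 bases. PU.1 and CEBP occurred together in 8 regions (0.937%, 0.475 to 1.84), against 0.243% of all regions and 0.775% of ATAC1 alone. They lay near Usp12, Eed, Il1a, St3gal6, Dph5, Hlx, Cxcl1 and Tbc1d2b. The fold was higher in ATAC1 at Eed, Il1a, St3gal6, Hlx and Tbc1d2b and higher in ATAC5 at Usp12, Dph5 and Cxcl1, where the ATAC5 fold of Cxcl1 rests on 1 Input read. The region near Il1a had 77 reads over 4 Input reads in ATAC1 and 39 over 3 in ATAC5, and that near Hlx had 62 over 9 and 35 over 8. The nearest peak of another library was of ATAC3 for both, at 1713 and 2320 bases.

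Each region was assigned to the protein-coding gene with the nearest start site, an assignment by position only. The 854 regions fell to 792 of 22238 protein-coding genes (3.56%). Of these, 736 genes had 1 region, 50 had 2 and 6 had 3. Those with 3 were Anxa1, Arhgap25, Gm11084, Irg1, Lef1 and Tmsb4x.

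Anxa1 encodes annexin A1, a phospholipid-binding protein that restrains inflammation. Its 3 isolated regions, 13240 to 101650 bases from the start site, were among 10 merged regions assigned to it. They had 33, 52 and 39 reads in ATAC1 and 43, 38 and 102 in ATAC5, on 0, 2 and 4 Input reads in ATAC1 and 0, 2 and 9 in ATAC5. With so few Input reads the folds are poorly set, and none is given for the region with 0. The third region held an AP-1 and a CEBP match.

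Arhgap25, a GTPase-activating protein of leukocytes, had regions at 2 of its start sites (32 and 248 bases away) and one 19363 bases away. ATAC1 had 62, 85 and 83 reads there and ATAC5 had 36, 62 and 43. The folds were low in both, from 4.02 to 5.66 in ATAC1 and from 3.93 to 5.66 in ATAC5, and the first region held a PU.1 match. Tmsb4x had 3 isolated regions, 2653 to 28528 bases away, with 75, 90 and 80 reads in ATAC1 and 61, 65 and 81 in ATAC5. The last of them held the PU.1 match shown above.

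Irg1 encodes the enzyme that makes itaconate in activated macrophages. Its 3 regions were 140119 to 218926 bases from the start site, and the assignment says little at that distance. The widest had 169 reads over 26 Input reads in ATAC1 and 153 over 28 in ATAC5. Lef1, a transcription factor of the Wnt pathway, had regions at 321, 55839 and 90954 bases, with 70, 102 and 139 reads in ATAC1 and 98, 96 and 56 in ATAC5. Only the middle one of the Lef1 regions was isolated. Gm11084, a predicted gene, had 3 isolated regions with 104 to 128 reads in ATAC1 and 69 to 93 in ATAC5.

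Of the 12 best-ranked regions, 10 lay within 1000 bases of a start site and 10 lay close to a peak of another library. The region of Dusp10 had 1673 reads over 92 Input reads in ATAC1 and 1443 over 92 in ATAC5, folds of 22.3 and 26.9, and a peak of ATAC6 lay 80 bases away. No other of the 12 had over 307 reads in ATAC1 or 262 in ATAC5. Those near Zfp566, Usp9x, AW146154, Pitpnm1, Capza1, Caprin1, Nckap5l, Rhof and Rreb1 had a peak of another library within 77 bases. The 2 isolated ones were at Msrb2, a methionine sulfoxide reductase, and at Dand5, a secreted antagonist of Nodal, where the region lay in an untranslated region of the neighbouring Gadd45gip1. Dand5 had 156 reads over 46 Input reads in ATAC1 and 101 over 42 in ATAC5, and Msrb2 had 128 over 18 and 139 over 34.

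Of 343 genes in 14 lists of bone marrow biology, 35 (10.2%) were nearest to at least 1 of the exclusive regions, against 3.56% of all protein-coding genes. List genes had more regions of any kind, since 317 of them (92.4%) were nearest to a merged region, against 66.3% of all genes. Counted per region, 41 of the 2052 regions at list genes were exclusive to ATAC1 and ATAC5 (2.0%, 1.48 to 2.70), against 1.68% of all regions, so that the difference lay within the counting interval. The shares ran from 4.44% for interferon and inflammation genes (6 of 135 regions, 2.05 to 9.36) to 0 of 115 for osteoblast genes and 0 of 39 for the genes of the sort markers. A count of 0 of 115 allows a share of up to 2.61%. Of the 14 lists, the interferon and inflammation list was the only one whose interval left out the 1.68% of all regions, and the lists share genes. The intervals were not adjusted for the number of lists, which were chosen with earlier results of these data known. No excess was tested.

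The 6 interferon and inflammation genes were Ccl2, Ccl7, Cxcl1, Irf2, Irf8 and Tnfaip3. The region at Ccl7, a monocyte chemokine, lay 48 bases from its start site and that at Ccl2, its neighbour on chromosome 11, 28506 bases away. Both held an AP-1 match, and their folds were higher in ATAC5, as in most of the 854 regions. ATAC1 had 45 reads at each, on 3 and 4 Input reads, and ATAC5 had 102 on 6 at Ccl7 and 106 on 11 at Ccl2. The folds were 18.4 and 29.1 at Ccl7 and 13.8 and 16.5 at Ccl2.

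Cxcl1 had 125 reads over 9 Input reads in ATAC1 and 39 over 1 in ATAC5. The higher ATAC5 fold (66.2 against 17.0) rests on 1 Input read. A peak of ATAC3 lay 14 bases away. Tnfaip3 had 61 reads over 8 and 48 over 6 at a region 78848 bases from its start site. Irf8, a transcription factor that directs monocytes and dendritic cells, had a region 11026 bases from its start site, in an intron annotated to Gm20388, with 63 reads over 7 and 62 over 8. Irf2, a repressor of interferon genes, had 78 over 16 and 90 over 18, in its intron 105376 bases from the start site.

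Of 29 haematopoietic genes, 4 had a region, among them Lcp1, Csf1r and Cd34, the last with 2. The 5 regions were 3.21% of 156 at these genes (1.38 to 7.28). Lcp1, the actin-bundling L-plastin of leukocytes, had 118 reads over 23 Input reads in ATAC1 and 68 over 22 in ATAC5, in an intron 2373 bases from its start site. Csf1r, the receptor of the macrophage growth factor, had 48 over 9 and 88 over 19, and Csf1, its ligand, had 97 over 18 and 74 over 19. The regions of Cd34 had 57 over 10 and 62 over 11 at 52897 bases, and 71 over 11 and 49 over 11 at 8683 bases. The Csf1r and both Cd34 regions were isolated, and that of Lcp1 was not. In these bulk libraries, fewer cells of a type and less open chromatin per cell cannot be told apart.

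Some markers of other cell types had a start-site peak in both libraries, counted as a peak centred within 1000 bases, and many had none. Of 29 haematopoietic genes, 14 had such a peak in ATAC1 (2830 reads in the best peaks together) and 20 in ATAC5 (2874 reads), against 5 to 15 genes and 506 to 2594 reads in the other 5 libraries. The gene count of ATAC1 was that of ATAC3 (14) and below that of ATAC6 (15). Scaled for depth, the reads were 3475 in ATAC1 and 4923 in ATAC5, against 559 to 4083 elsewhere, so that only ATAC5 stood above all others. Over all protein-coding genes, 49.1% had a start-site peak in ATAC1 and 52.8% in ATAC5, against 42.1% to 51.7% elsewhere. The 14 of 29 in ATAC1 lay near that share, and the 20 of 29 in ATAC5 lay above it. The endothelial counts given below lay under it in ATAC1 and ATAC5. Ptprc, which encodes the CD45 used to exclude blood cells, was open in both and in ATAC3 and ATAC7, while Mpo, Elane and Cebpe were without one in all 7 libraries. Of 21 stromal genes, 6 had a peak in ATAC1 (1513 reads) and 11 in ATAC5 (3923 reads), against 5 to 8 elsewhere (743 to 2709 reads). Ly6a, which encodes Sca-1, and Prrx1 had none in any of the 7 libraries, and Pdgfra had none in ATAC1 and ATAC3. Of 20 endothelial genes, 3 had a peak in ATAC1 (948 reads) and 9 in ATAC5 (2171 reads), against 1 to 5 elsewhere (539 to 1590 reads), with Cdh5 at none. The part of other cell types in the exclusive regions was not tested.

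In the stromal list, Cd44, the hyaluronan receptor, and Postn, the matrix protein periostin, had a region. Cd44 had 102 reads over 5 Input reads in ATAC1 and 55 over 2 in ATAC5, in an intron. Postn had 60 over 10 and 80 over 9, 2376 bases from its start site, and the nearest peak of another library was 112395 bases away. In the endothelial list, Cdh5, the VE-cadherin gene, had 59 over 9 and 50 over 12, and Ets1, a transcription factor of vessels and lymphocytes, had 104 over 21 and 91 over 18 beside an ATAC2 peak.

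Among matrix genes, Col3a1, Timp2, Fbln2 and Lamc1 had a region, the last with 2. Col3a1 had 45 reads over 6 Input reads in ATAC1 and 94 over 6 in ATAC5, at a region 28441 bases from its start site. Timp2, an inhibitor of matrix metalloproteases, and Fbln2, the matrix protein fibulin 2, had theirs at a start site (144 and 25 bases away). Timp2 had 107 over 34 and 80 over 32, and Fbln2 had 50 over 19 and 77 over 20. Lamc1, a laminin chain, had 48 over 7 and 66 over 20 in an intron and 116 over 15 and 130 over 20 near its start site. The second of these regions was 29 bases from an ATAC7 peak.

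For genes of the cytoskeleton and the Hippo pathway, which senses cell contact and tension, 5 of 35 had a region. Yap1, the effector of the pathway, had 51 reads over 5 Input reads and 46 over 4. Its targets Ctgf and Cyr61 had 60 over 7 and 56 over 7, and 140 over 13 and 182 over 14. The region of Cyr61 was 19 bases from an ATAC2 peak, and those of Yap1 and Ctgf were isolated. Zyx had 56 over 15 and 44 over 14. Pdlim7 had 77 over 22 and 93 over 20, 78 bases from an ATAC2 peak.

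Wnt genes with a region were Lef1 and Wnt7b, 2 of 42. The 2 Wnt7b regions, 17375 and 18538 bases from the start site of this Wnt ligand, had 93 and 110 reads in ATAC1 and 126 and 157 in ATAC5, on 30 to 42 Input reads. In the TGF-β and BMP list 3 of 35 genes had one. Tgfbr2, a receptor chain, had 123 over 13 and 82 over 13, in its intron 52217 bases from the start site. Tgfb3, a ligand, had 67 over 20 and 95 over 26, in an intron of Ttll5 118926 bases away. Smad7, the inhibitor, had 155 over 28 and 77 over 10, in an intron of Dym 88514 bases away. For Tgfb3 and Smad7 the assignment says little at that distance.

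Of 24 AP-1 and immediate early genes, Jun, Klf2, Klf6 and Mafk had a region. The 2 Klf6 regions lay 56821 and 58456 bases from its start site with 97 and 90 reads in ATAC1 and 78 and 50 in ATAC5. The first was 648 bases from an ATAC4 peak and the second 23 bases from an ATAC3 peak. Mafk, a partner of larger basic leucine zipper factors, had 58 over 13 and 128 over 30, 415 bases from its start site. Klf2, 1226 bases away, had 39 over 5 and 57 over 7 with a PU.1 match, and an ATAC2 peak lay 946 bases from its region. The region nearest to Jun, 251346 bases away, had 70 over 12 and 53 over 12. In the differentiation lists, 1 of 19 adipocyte genes had a region, Dgat2, an enzyme of triglyceride synthesis. It had 62 over 14 and 72 over 17, 506 bases from an ATAC2 peak. Trps1, a transcription factor of cartilage and 1 of 20 chondrocyte genes, had a region with 71 over 4 and 39 over 4. Per region these were 1.59% (0.281 to 8.46) and 0.621% (0.11 to 3.43), both intervals covering 1.68%.

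**Figure D5:**
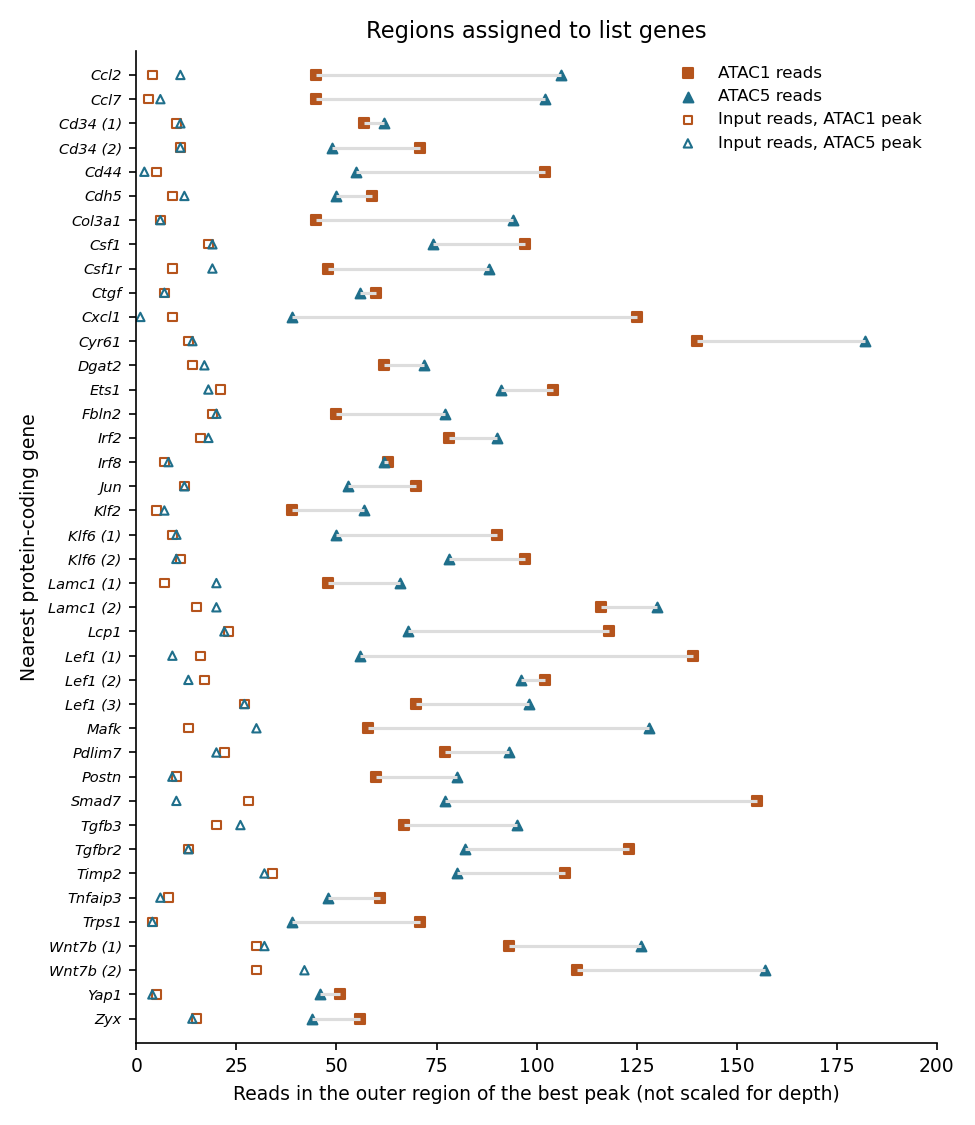
Reads in the outer region of the best ATAC1 peak (brown squares) and of the best ATAC5 peak (blue triangles) of the regions assigned to the list genes reported here, with the Input reads there as open symbols. The x axis gives reads without scaling for depth, starting at 0, and the y axis the genes, with numbers in brackets for genes with several regions. Library reads lie between 39 and 182, above the Input reads of the same peak in every region shown.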

How the data were processed

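ATAC-seq reads of 7 libraries were aligned by the authors to mouse build mm9 with bowtie, and CisGenome called peaks of each library against 1 Input library in a 2-sample comparison (p-value limit 1e-05, false discovery rate under 0.01). The bowtie version, any read shift and any duplicate filter are not given in the sources used here. The submitters' notes also name DiffBind and bedtools. The extraction protocol in the labels describes an RNA kit. The deposited tables have no header, so their columns were read from the values: the authors' counts of library and Input reads in the outer region of each peak, their fold, a ratio computed as scale factor times library reads over Input reads plus 0.01, and a signal column of the caller that was not used. Peaks were called per library, with no pooling. Depth is unknown beyond the reads in peaks. Coordinates were read as inclusive.

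Peaks (164103 in all) were merged into 50683 regions where they had at least 1 base in common. Start sites, gene parts and sequence came from the mouse genome of build mm9 (NCBIM37) with GENCODE M1 annotation. Each region was assigned to the nearest protein-coding start site. Motifs were searched as letters on both strands in the 200 bases around the centre. Sets were compared by counts, medians and Wilson intervals (95%), without p-values, since each title has 1 library. The limit for a count of 0 was set at 3 counts. The regions, gene lists (346 genes, of which Cebpd, Gfi1 and Ly76 were not matched), motifs and comparisons were chosen with earlier results of these data known.

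Named were the 12 best-ranked regions, the 5 with the fewest common bases and the 5 nearest misses, the 5 widest, the 3 highest and 3 lowest ratios with at least 10 Input reads, every list gene with a region except 1 that is not reported here, and the genes with most regions. For the last the rule asked for 8 genes, but 50 tied behind the first 6, so 6 are described. The printed sequences are a selection, and the regions with both PU.1 and CEBP matches were chosen after their values were seen. Alternatives varied list length, merging, overlap, fold, start-site distance, search window and gene assignment. Those restricted to isolated regions, and those of the PU.1, CEBP and E-box shares, were chosen after seeing the data. Steps were tested on simulated data. Tools were python 3.11.15, numpy 2.4.6, pandas 2.3.3, scipy 1.17.1, matplotlib 3.10.9, pysam 0.24.0 and samtools 1.23.1.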

Additional observations from a re-analysis of the deposited data

How the results depend on the processing

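With lists of equal length the PU.1 share stood below that of all regions, inside its interval (0.514 to 6.56). The promoter, AP-1, CEBP and E-box shares and the GC content kept their side of all regions under each alternative run on them. The other motifs were counted away from promoters and in isolated regions, and the other places in isolated regions. They were not rerun with changed lists, merging, fold or window. The number of regions depended most on the lists: it was 107 with every list cut to its best 15188 peaks (25 of them overlapping the 854), 27 with only ATAC1 and ATAC5 cut, 1293 with ATAC6 peaks allowed and 416 with a reciprocal overlap of 50%. Allowing another library, counting ends as half-open, merging within 500 bases, using outer regions, asking for a fold of at least 5 or leaving out Input-free peaks gave 755 to 1122. With lists of equal length the promoter share was 50.5% (all regions 57.5%), the median GC content 56% (58.2%) and the PU.1 share 1.87% (2.42%). The promoter share was 20% (35.2%) with peaks within 500 bases merged, 17.8% (33.1%) for start sites within 500 bases, 37.8% (47.5%) within 2500 bases, and 17.5% for isolated regions. A window of 400 bases raised AP-1 to 19.6% (24.4%), PU.1 to 10.1% (4.41%), CEBP to 21.1% (14.8%) and E-box to 32.3% (25.2%), and the whole region gave AP-1 16.9% (19.2%), CEBP 16% (10.7%) and E-box 25.6% (18.2%), windows that hold more letters. CEBP was in 16.1% (9.79%) away from promoters. The AP-1 interval covered the share of all regions over the whole region (14.5 to 19.5) and with equal lists (6.53 to 18.6, against 12.7%). It also did so in isolated regions, with 13.6% (11.1 to 16.5) against 16.1%. Assigning regions to gene bodies with 5000 bases on each side gave 23 list genes and 642 of all genes, against 35 and 792. The causes were not tested. No paired analysis was possible because no title has a replicate, and for the same reason no library could be left out of a group. A region absent from a list can be open below the caller's threshold.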

Other observations

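The genes named here were picked by hand from the 792 genes nearest to an exclusive region, after their values were seen, and without a count of how many such genes were looked at, so they show no excess of any kind of gene. The interval of the haematopoietic list (1.38 to 7.28%) covers the 1.68% of all regions. Cxcr4, the receptor of CXCL12, had 2 regions, with 92 and 126 reads in ATAC1 and 71 and 68 in ATAC5. Cxcr5, a receptor of B and T cells that guides them to follicles, had 2, with 61 and 121 reads in ATAC1 and 77 and 47 in ATAC5. Dpp4, a peptidase of the cell surface that cleaves chemokines, had 2, with 65 and 106 reads against 87 and 49. Osm, the cytokine oncostatin M, had 2, with 165 and 168 reads against 82 and 82. Start sites were in reach of PU.1 matches at Aim2, a sensor of DNA in the cytosol (28 bases, 52 reads in ATAC1 and 55 in ATAC5), and at Il18rap, a chain of the interleukin 18 receptor (2 bases, 49 and 40 reads). Single regions lay near Il2ra, a chain of the interleukin 2 receptor (152 and 50 reads), Cd69, an early marker of activated lymphocytes (125 and 124), and Camp, the antimicrobial cathelicidin (65 and 92).

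Regions near some secreted stromal genes were picked in the same way. The insulin-like growth factor binding proteins Igfbp5 and Igfbp6 had 36 and 46 reads in ATAC1 and 106 and 128 in ATAC5, whereas Igfbp4 had 152 in ATAC1 and 59 in ATAC5. Fstl1, a secreted follistatin-like protein, had 44 and 123 reads, and Tgfbi, a matrix protein induced by TGF-β, had 78 and 121. Reads are not scaled for depth. By chromosome, the exclusive regions were 0.874% of all regions on chromosome 12 (18 regions, 0.553 to 1.38) and 2.15% on chromosome 11 (66 regions, 1.70 to 2.73), the lowest and highest shares apart from chromosome Y with 2 of 49 regions. No difference between chromosomes was tested.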
